A study of Mus musculus with 6 samples.

Results

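The genes described here are 10 genes of bone morphogenetic protein (BMP) signalling and of the Id family: Id1, Id2, Id3, Id4, Bmp4, Bmpr1a, Bmpr1b, Smad1, Smad5 and Nog. They were taken by name from the array's annotation, and all 10 were measured, each by 1 probe set, among 19938 genes in all. Ependymal cells form the ciliated sheet along the brain ventricles. The EGFP-positive ependymal domain of FoxJ1-EGFP mouse brains was laser captured and its RNA hybridised to 6 Affymetrix arrays. FoxJ1 null brains gave 1 array each at postnatal days 1, 7 and 14, and wildtype brains likewise, which makes 3 arrays per genotype and 2 per age. All 6 groups carried the FoxJ1-EGFP reporter, which by its name marks cells with Foxj1 promoter activity, and the series title names male mice. How many animals went into an array is not stated in the labels. With 1 array per genotype and age, p-values rest on the spread that the model of genotype and age leaves unexplained. How much of that spread is technical, and how much lies between animals, cannot be told. Levels are log2 values as deposited, and a difference of 1 is a 2-fold change.

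BMPs are secreted ligands that bind a pair of serine/threonine kinase receptor types on the cell surface. The type I receptors then phosphorylate Smad1, Smad5 and Smad9, which enter the nucleus with Smad4 and switch on target genes, the Id genes foremost among them. Id proteins lack a DNA-binding region and hold E proteins and other basic helix-loop-helix factors away from DNA. In the ventricle wall BMPs restrain neuron formation and favour astrocytes, and ependymal cells are a known source of the antagonist Noggin, product of Nog.

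Markers of ependymal cells and of other cells were read on the same arrays. A list of 12 ependymal cilia genes, Foxj1 among them, had mean levels of 7.03, 7.28 and 7.15 in FoxJ1 null tissue at days 1, 7 and 14, against 8.57, 8.58 and 8.56 in wildtype tissue, and 10 of the 12 were lower in the null by the limma test. Foxj1 itself was lower by 0.63 ± 0.25 (SD over the 3 ages) without passing the test (adjusted p = 0.0573), and the position of its probes relative to the null allele was not checked. Choroid plexus markers averaged 8.22 to 8.72 on the null arrays and 9.05 to 9.21 on the wildtype arrays. Xist, the X-inactivation transcript, read 12.35 on the null day 7 array and 12.40 on the wildtype day 1 array, against 5.37 to 5.83 on the other 4, which sets those 2 arrays against the title's male mice. The Y-linked gene Eif2s3y read 4.61 and 4.53 on these 2 arrays and 10.33 to 10.72 on the other 4. Kdm5d and Uty, also Y-linked, were low on the same 2 arrays. By these genes the 2 arrays read as female, so sex differs within the day 1 and day 7 pairs, in opposite directions. The labels give no sex per sample. Across all arrays the lowest and highest median levels were 7.72 and 7.81.

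None of the 10 genes passed the test between FoxJ1 null and wildtype tissue. In a limma model with genotype and age, differences (null minus wildtype) lay between -0.12 (Nog) and 0.14 (Smad1), all with adjusted p = 1.00 and with unadjusted p from 0.277 to 0.968, so that 0 of the 10 also passed an unadjusted 0.05. Over all genes tested 0.672% were called, 0.00502% higher and 0.667% lower in the null, and 5.92% had an unadjusted p under 0.05. The genotypes overlapped for each of the 10 genes, and no gene kept the same sign at all 3 ages, against 6.15% of all genes with genotypes that did not overlap and 23.8% with 1 sign throughout. The 95% intervals of the 10 differences together spanned -0.39 to 0.54, with the upper bound for Id3 at 1.45-fold.

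**Figure D1:**
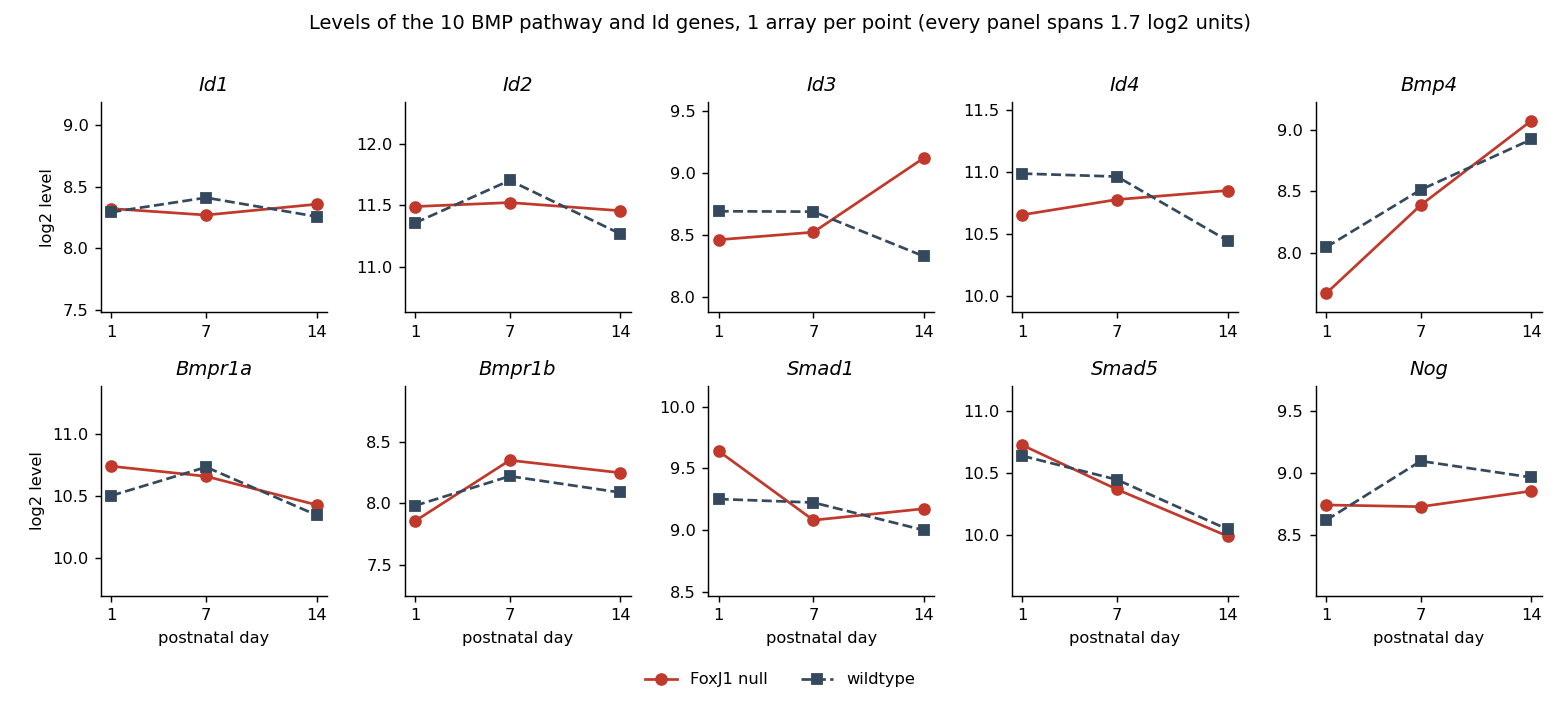
Log2 level of each of the 10 genes (y axis, every panel spanning the same width) against postnatal day (x axis), with 1 array per point, FoxJ1 null in red circles and wildtype in dark squares. Bmp4 climbs and Smad5 declines in both genotypes. The genotypes cross between days 7 and 14 for Id3 and Id4, and also for Id1, Id2, Bmp4, Bmpr1a and Smad1.

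**Figure D2:**
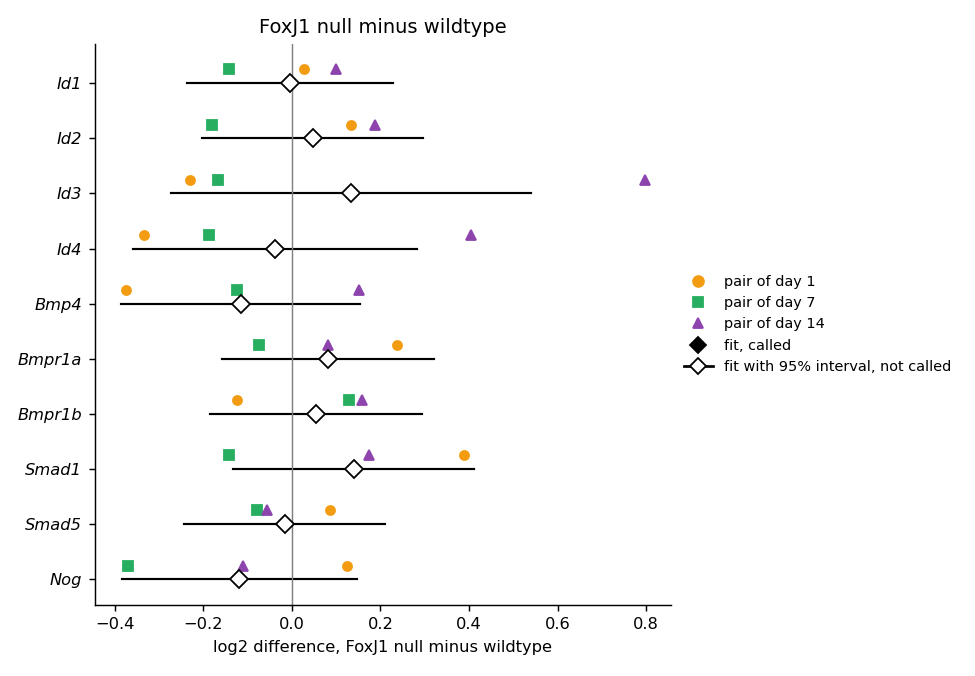
Log2 difference, FoxJ1 null minus wildtype, for each gene: the fitted value (open diamond) with its 95% interval (line), and the pairs of days 1, 7 and 14 as coloured points. Every interval covers 0, and the day 14 pair of Id3, at 0.80, lies farthest from 0.

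Promoter sequence is shown for 4 genes on which the results below turn: Bmp4 and Smad5, which changed with age, and Id3 and Id4, the members with an unadjusted p under 0.05 for the difference in slope between the genotypes. The sequences are the 250 bases before the transcription start in RefSeq on mouse build GRCm38.p6, 5′ to 3′ on the gene's strand. Bmp4 lies on the minus strand (chr14:46390670-46390919), and Smad5 (chr13:56702760-56703009, the most upstream of 3 starts), Id3 (chr4:136143572-136143821) and Id4 (chr13:48260866-48261115) on the plus strand. Capitals mark the E-box CANNTG, the site bound by basic helix-loop-helix factors, and the GC-rich Smad motif GGCGCC.
Bmp4: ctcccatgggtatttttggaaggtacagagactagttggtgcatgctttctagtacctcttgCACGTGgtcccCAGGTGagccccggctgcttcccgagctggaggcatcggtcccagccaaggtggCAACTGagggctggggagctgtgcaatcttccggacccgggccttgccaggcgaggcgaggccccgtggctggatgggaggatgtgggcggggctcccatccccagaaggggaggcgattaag
Smad5: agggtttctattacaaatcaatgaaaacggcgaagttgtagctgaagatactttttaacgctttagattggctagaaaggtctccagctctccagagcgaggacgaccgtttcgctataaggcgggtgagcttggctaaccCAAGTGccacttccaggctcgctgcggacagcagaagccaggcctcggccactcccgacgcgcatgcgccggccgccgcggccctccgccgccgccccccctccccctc
Id3: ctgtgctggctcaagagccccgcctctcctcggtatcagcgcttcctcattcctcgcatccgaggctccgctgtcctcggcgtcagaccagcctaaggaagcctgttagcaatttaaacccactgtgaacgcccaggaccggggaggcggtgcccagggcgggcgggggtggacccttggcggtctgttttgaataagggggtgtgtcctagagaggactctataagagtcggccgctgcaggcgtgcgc
Id4: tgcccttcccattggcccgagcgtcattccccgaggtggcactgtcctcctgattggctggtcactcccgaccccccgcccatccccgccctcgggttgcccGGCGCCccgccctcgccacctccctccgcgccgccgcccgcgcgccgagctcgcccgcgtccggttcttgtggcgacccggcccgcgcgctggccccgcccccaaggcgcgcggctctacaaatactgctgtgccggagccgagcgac

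Of the 10 genes 8 had a RefSeq promoter entry, and Id1 and Nog are named only. Both strands were searched. GGCGCC occurred in the most upstream window of 3 of the 8 (Id2, Id4 and Bmpr1a), against 9.59% of 32851 mouse promoter windows of the same length. In Id4 it began 148 bases before the start, and the window of a later Smad5 start held it 19 bases before that start. Shares of all windows count every start of a gene and are not matched for GC content. E-boxes occurred in 4 of the 8, against 66.2% of all windows, and Bmp4 held 3 of them, 188, 177 and 123 bases before the start. The 4-letter Smad box GTCT was found in 5 of the 8, with a share of 82.9% of all windows, and Id3 held 2 copies, 166 and 68 bases before the start. No window of the 8 genes held the forkhead motif GTAAACA, which 3.17% of all windows hold. These matches describe letters only.

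The 4 Id genes, whose fitted differences between the genotypes lay between -0.04 and 0.13, differed among themselves in how far the arrays spread. Id1, the classical immediate BMP target, read 8.32, 8.27 and 8.36 in FoxJ1 null tissue at days 1, 7 and 14, against 8.29, 8.41 and 8.26 in wildtype tissue. All 6 values lay within 0.15 of each other, and none of the 5 gaps between neighbours in their order exceeded the residual SD of 0.13. Id2 read 11.49, 11.52 and 11.46 in null tissue at these ages, against 11.36, 11.70 and 11.27 in wildtype tissue. The wildtype day 7 array was highest, 0.18 above its nearest neighbour, and was the only array of Id2 set apart by more than the residual SD of 0.14. The genotype difference was -0.0043 ± 0.12 (SD, n = 3 pairs) for Id1 and 0.05 ± 0.20 for Id2.

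Id3 and Id4 were lower in the null at days 1 and 7 and higher at day 14, and so was Bmp4. Each of the other 7 members also had both signs among its 3 pairs. Every member but Bmpr1b was lower in the null at day 7, and every member but Smad5 and Nog was higher at day 14. The share of all genes with each sign at these ages was not counted. Of 14 other Smads and intracellular regulators, 2 were higher in the null at day 7 and 8 at day 14. For 9 other receptors and co-receptors the counts were 1 and 7, for 10 neuroblast markers 1 and 0, and for 9 microglia markers 5 and 9. Id3 read 8.46, 8.52 and 9.12 in FoxJ1 null tissue at days 1, 7 and 14, against 8.69, 8.69 and 8.33 in wildtype tissue. The null day 14 array was the highest of the 6 and the wildtype day 14 array the lowest, so the pair differences ran -0.23, -0.17 and 0.80 over the ages. Id4, which in the brain marks astrocytes and quiet stem cells, read 10.66, 10.78 and 10.85 in null tissue at these ages, against 10.99, 10.96 and 10.45 in wildtype tissue. Its wildtype day 14 array stood 0.21 below the next and its pair differences were -0.33, -0.19 and 0.41. Only the day 14 pair was alike in Xist, so age and that likeness cannot be told apart in the changes of sign. For Id3, 1 of the 5 gaps between neighbouring arrays exceeded the residual SD of 0.22 (the gap of 0.43 below the null day 14 array). For Id4 1 gap exceeded the residual SD of 0.17. With 1 array per genotype and age, this SD also holds any genotype difference that changes with age. It therefore cannot say whether such a change lies within the spread of repeated arrays. In the slope model described next the residual SD was 0.15 for Id3 and 0.14 for Id4.

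A test of the slope over age asked whether the change with age differed between the genotypes. The difference in slope, given as the total over the 13 days (null minus wildtype), was 1.05 ± 0.31 (SE) for Id3 and 0.75 ± 0.29 (SE) for Id4. Neither passed (limma adjusted p = 1.00 for both, unadjusted p = 0.00711 and 0.0284), and these were the 2 members with an unadjusted p under 0.05. Over all genes 0% were called and 2.99% had an unadjusted p under 0.05. Slope differences of the other members lay between -0.22 (Nog) and 0.53 (Bmp4). Leaving out single arrays gave 0.51 (without the null day 14 array) to 1.49 for Id3 and 0.25 (without the wildtype day 14 array) to 1.16 for Id4.

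Mean levels of 6 of the marker lists were also lower in the null at days 1 and 7 and higher at day 14. These were the meningeal and fibroblast, endothelial, mural, astrocyte, radial glia and stem cell, and oligodendrocyte precursor lists. The choroid plexus, ependymal cilia, proliferation, oligodendrocyte and myelin, neuroblast, neuron and microglia lists had other sign patterns. Some lists that mark no cell type had the same signs, at -0.01, -0.15 and 0.17 for 10 TGF-beta branch genes. BMP-responsive genes other than the Id family stood at -0.01, -0.11 and 0.06. How many of all genes had these signs was not counted. The 10 meningeal and fibroblast markers had mean levels of 9.18, 9.47 and 9.60 in FoxJ1 null tissue at days 1, 7 and 14, against 9.64, 9.93 and 9.04 in wildtype tissue. All 10 were lower in the null at days 1 and 7 and all 10 higher at day 14, with mean differences of -0.46, -0.46 and 0.56 at the 3 ages. Summed on the linear scale they ranged from 7313 to 9882 on the null arrays and from 7015 to 12221 on the wildtype arrays. All 9 microglia markers and all 9 endothelial markers were also higher in the null at day 14, by a mean of 0.66 and 0.22. Microglia markers summed to between 2813 and 6380 on the null arrays and to between 2907 and 3958 on the wildtype arrays, and endothelial markers to between 2606 and 4296 on the null arrays and between 3288 and 3725 on the wildtype arrays. The mean differences at days 1, 7 and 14 were -0.40, -0.06 and 0.19 for the 10 radial glia and stem cell markers, with 1, 5 and 8 of them higher in the null. They were -0.33, -0.28 and 0.10 for the 10 astrocyte markers, with 2, 1 and 7 higher in the null. Mural markers differed by -0.28, -0.23 and 0.25, and oligodendrocyte precursor markers by -0.20, -0.28 and 0.05. Radial glia and stem cell markers summed to between 13749 and 16247 on the null arrays and between 12380 and 22630 on the wildtype arrays, and astrocyte markers to between 14420 and 28753 on the null arrays and between 17768 and 30920 on the wildtype arrays. No marker was at 0, a value these log2 levels do not take. The part of these cells in the Id3 and Id4 values was not tested, and in captured tissue more cells of a type and more RNA per cell cannot be told apart.

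**Figure D3:**
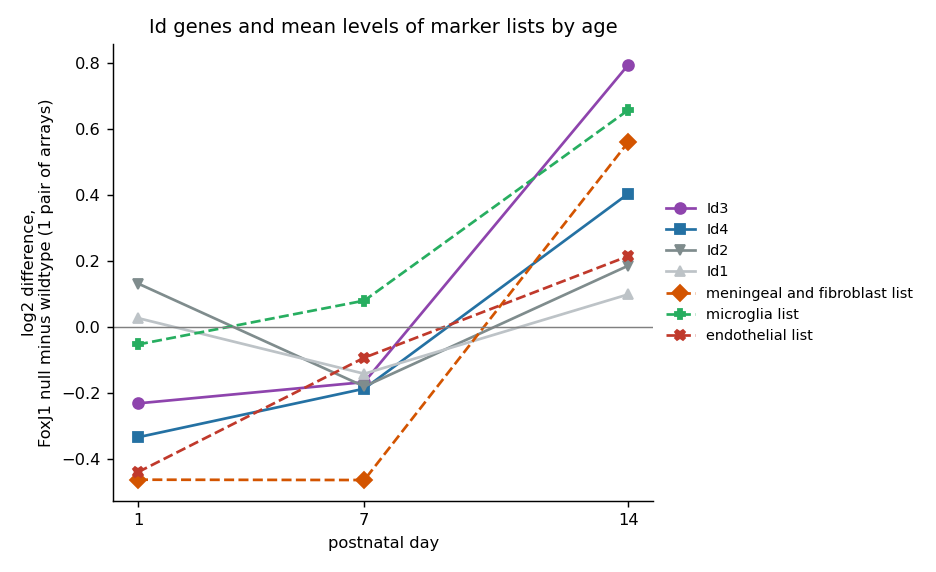
Log2 difference, FoxJ1 null minus wildtype (y axis), at postnatal days 1, 7 and 14 (x axis) for the 4 Id genes (solid lines) and for the mean level of 3 marker lists (dashed lines), each point from 1 pair of arrays. Id3, Id4, the meningeal and fibroblast list and the endothelial list lie below 0 at days 1 and 7 and above it at day 14. So do 4 marker lists that are not drawn.

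Bmp4, the ligand of the set, rose with age more than any other member. It read 7.67, 8.39 and 9.07 in FoxJ1 null tissue at days 1, 7 and 14, against 8.05, 8.51 and 8.92 in wildtype tissue. The pairs of the 3 ages did not overlap, and the order of the ages was the same in both genotypes. Day 14 exceeded day 1 by 1.14 ± 0.15 (SE), a 2.20-fold rise (95% interval 0.80 to 1.47, limma adjusted p = 0.00133). The rise was 1.40 in the null and 0.87 in the wildtype, and this difference between the genotypes was not called by the slope test (0.53 ± 0.27, adjusted p = 1.00). Each step was about equal, 0.59 from day 1 to day 7 (adjusted p = 0.222) and 0.55 from day 7 to day 14 (adjusted p = 0.0772), and neither passed on its own. The first step was called without the wildtype day 1 array (0.78, adjusted p = 0.0315). The later step was called without a day 1 array (0.55, adjusted p = 0.0203). For this step the fit is the same whichever of the day 1 arrays is left out. The later step was also called without the wildtype day 14 array (0.75), which leaves 1 array at that age. Without the null day 14 array the later step was 0.34 (adjusted p = 0.606).

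Bmp4 is also known as a marker of cells committing to the oligodendrocyte lineage, and 6 of 10 listed markers of oligodendrocyte precursors, Bmp4 included, were called higher at day 14 than at day 1. The 9 other measured markers of oligodendrocyte precursors averaged 8.35, 8.86 and 9.55 in FoxJ1 null tissue at days 1, 7 and 14, against 8.55, 9.13 and 9.50 in wildtype tissue, and all 9 were higher at day 14 than at day 1 in both genotypes. Summed on the linear scale they ranged from 3750 to 8002 on the null arrays and from 4511 to 7813 on the wildtype arrays. Enpp6, an enzyme of newly forming oligodendrocytes, rose by 3.29 (adjusted p = 6.01e-06) and the receptor gene Gpr17 by 2.36 (adjusted p = 1.67e-05). Other markers of this list rose far less. Means of both genotypes at day 1 and day 14 were 10.24 and 10.48 for Pdgfra and 7.94 and 8.06 for Cspg4. They were 9.11 and 9.38 for Olig2 and 8.53 and 9.03 for Sox10. Astrocyte markers rose as well, 8 of 10 being called higher and 1 lower, and their means at day 14 and day 1 were 11.05 and 9.67 in the null and 10.95 and 10.00 in the wildtype. All 9 oligodendrocyte and myelin markers were called higher (median 3.08), with 6 of 8 neuron markers (median 0.89) and 7 of 9 microglia markers (median 0.74). The part of all these cells in the rise of Bmp4 was not tested.

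With a span of 1.40 between its lowest and highest array, Bmp4 was the only member that spanned at least 1. Among 939 genes above the median level that also spanned at least 1, the profiles most like it over the 6 arrays were those of Gramd3 (Pearson r = 0.998), of Nefl, the neurofilament light chain (0.998), and of Rgs7bp (0.998). Of these candidates 299 had r over 0.9. The measure rests on 6 arrays that share ages and libraries, and is a description.

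No change of the type I receptors passed the test. Bmpr1a read 10.74, 10.66 and 10.43 in FoxJ1 null tissue at days 1, 7 and 14, against 10.50, 10.73 and 10.34 in wildtype tissue. Both day 14 values lay below all others. The difference between day 14 and day 1 was -0.24 ± 0.13 (SE) and did not pass (adjusted p = 0.296). Bmpr1b read 7.86, 8.35 and 8.25 in null tissue at these ages, against 7.98, 8.22 and 8.09 in wildtype tissue. Here both day 1 values were the lowest, and day 7 exceeded day 1 by 0.37 ± 0.13 (SE), which did not pass either (unadjusted p = 0.0197, adjusted p = 0.386). In each receptor 1 of the 5 gaps between neighbouring arrays was above the residual SD of 0.13.

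Smad5, a signal-carrying Smad, fell with age in both genotypes. It read 10.73, 10.37 and 9.99 in FoxJ1 null tissue at days 1, 7 and 14, against 10.64, 10.45 and 10.04 in wildtype tissue. The pairs of the 3 ages did not overlap, and within an age the genotypes differed by 0.09 at most. Day 14 was below day 1 by 1.59-fold (-0.67 ± 0.12 SE, 95% interval -0.94 to -0.39, limma adjusted p = 0.00751). Without the null day 14 array the difference was -0.64 and no longer passed (adjusted p = 0.0628). Smad1, its close relative, read 9.64, 9.08 and 9.17 in null tissue at these ages, against 9.25, 9.22 and 9.001 in wildtype tissue. The null day 1 array stood 0.39 above the next, and day 14 differed from day 1 by -0.36 ± 0.15 (SE, adjusted p = 0.151). Smad1 was called lower at day 14 once Xist entered the model (-0.49, adjusted p = 0.0387).

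Nog, the antagonist, showed no change that passed. It read 8.74, 8.73 and 8.85 in FoxJ1 null tissue at days 1, 7 and 14, against 8.62, 9.10 and 8.96 in wildtype tissue. The wildtype day 7 array was highest, and the pair difference of that age, -0.37, was the largest of the 3. No gap between neighbours exceeded the residual SD of 0.14. Day 14 exceeded day 1 by 0.23 ± 0.14 (SE, adjusted p = 0.365), and the mean genotype difference was -0.12 ± 0.25 (SD, n = 3 pairs).

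Of the 10 members 1 was called higher and 1 lower at day 14 than at day 1, where 13.8% of all genes were called, 7.5% higher and 6.29% lower. With Smad1, 3 members had an unadjusted p under 0.05, and so had 27.2% of all genes. The median difference was -0.03 over the members and -0.01 over all genes. The 2 ages did not overlap for 6 of the members, 3 of them higher at day 14 (Bmp4, Bmpr1b and Nog) and 3 lower (Bmpr1a, Smad1 and Smad5), and for 54.9% of all genes. For day 7 against day 1, 0 members were called by limma (0.0602% of all genes, 0.0552% higher and 0.00502% lower), with 2 members and 10.6% of all genes under an unadjusted p of 0.05. For day 14 against day 7 it was 0 again (4.21% of all genes, 2.34% higher and 1.87% lower), with 3 members and 18.2% of all genes under an unadjusted p of 0.05. Id3 was called higher at day 14 than at day 1 only when the wildtype day 14 array was left out (0.65, adjusted p = 0.0426), and its difference with all arrays was 0.15 (adjusted p = 0.746).

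**Figure D4:**
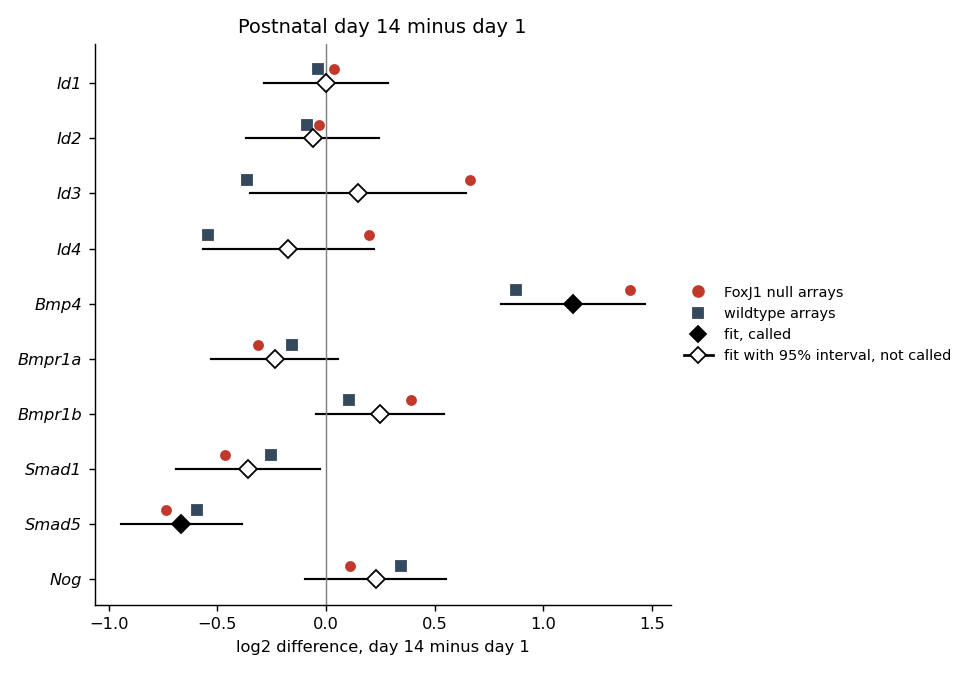
Log2 difference, day 14 minus day 1, for each gene: the fitted value (diamond, filled where limma adjusted p was under 0.05) with its 95% interval, and the difference within the FoxJ1 null arrays (red circles) and within the wildtype arrays (dark squares). Bmp4 lies at 1.14 and Smad5 at -0.67, and Id3 and Id4 are the members whose genotypes lie far apart on opposite sides of 0.

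The rest of the pathway, 60 measured genes of 61 listed, held no gene called between the genotypes. The median difference was 0.02, against -0.01 over all genes. Among 16 other ligands, Bmp2 (0.36, adjusted p = 0.463) and Gdf10 (-0.29, adjusted p = 0.902) had the largest differences, and among 9 other receptors and co-receptors Rgma (0.29) and the type II receptor gene Acvr2a (0.25). Leaving out arrays gave -0.40 to -0.0714 for Gdf10, 0.16 to 0.52 for Rgma and 0.11 to 0.33 for Acvr2a. Tob1 (0.16) and Smurf1 (0.14) led the 14 other Smads and intracellular regulators. Among 21 extracellular regulators, Sostdc1, a secreted antagonist that is also a choroid plexus marker, read 8.27, 10.19 and 9.09 in FoxJ1 null tissue at days 1, 7 and 14, against 10.60, 10.21 and 10.50 in wildtype tissue. Its mean difference of -1.25 did not pass (adjusted p = 0.253), and the day 7 pair differed by -0.02. Without either day 7 array it was called (-1.87, adjusted p = 0.0018), and likewise without either day 14 array (-1.17, adjusted p = 0.0236). Leaving out either day 1 array gave -0.71 (adjusted p = 0.315). At each age, dropping the null or the wildtype array gives the same genotype fit, so these are not separate results. It was also called in the model with Xist (-1.27, adjusted p = 0.00245) and in a fit without both high-Xist arrays that also took age as a number (-1.50, adjusted p = 0.00658). All 10 choroid plexus markers, Sostdc1 included, were lower in the null at each age. They summed to between 9978 and 11980 on the null arrays and to between 24975 and 25640 on the wildtype arrays. Most of these sums is Ttr, which read 12.87 to 13.24 on the null and 14.35 to 14.37 on the wildtype arrays. Mean differences ran from -1.31 for Ttr to -0.09 for Aqp1. The part of choroid plexus tissue in the Sostdc1 value was not tested. Tll1, an extracellular protease gene, had the next largest difference (-0.26, adjusted p = 0.772).

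With age, 8 of these 60 genes were called at day 14 against day 1, 2 higher and 6 lower. That is 13.3% of them, against 13.8% of all genes tested, a share near the background. Receptors and co-receptors held 4 of the genes called lower, among 9 measured genes and with a list median of -0.48. Of all genes 6.29% were called lower, with a median of -0.01. Other lists fell on the same arrays: all 9 proliferation markers were called lower (median -1.14), with 7 of 10 neuroblast markers (median -0.68) and 3 of 10 radial glia and stem cell markers (median -0.37), and the part of those cells in the decreases, that of Smad5 included, was not tested. Acvr2a, a type II receptor gene, read 11.33, 10.79 and 10.15 in FoxJ1 null tissue at days 1, 7 and 14, against 10.79, 10.67 and 10.06 in wildtype tissue, and was lower at day 14 by 1.93-fold (-0.95, adjusted p = 0.00291). Rgma, a membrane-anchored BMP co-receptor, fell by 0.88 (adjusted p = 0.0099) and Neo1, whose product neogenin binds Rgma, fell by 0.60 (adjusted p = 0.0189). Rgmb, named after its value was seen, fell by 0.49 (adjusted p = 0.0349). Among the other ligands Gdf10 fell by 0.80 (adjusted p = 0.0138), and among the intracellular regulators Smad4, the partner of all signal-carrying Smads, fell by 0.46 (adjusted p = 0.046).

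Both genes called higher were secreted regulators. Htra1, a secreted protease that restrains signalling of the TGF-beta family, read 8.86, 9.30 and 10.97 in FoxJ1 null tissue at days 1, 7 and 14, against 8.89, 9.68 and 11.00 in wildtype tissue, a 4.31-fold rise between days 1 and 14 (2.11, adjusted p = 3.6e-05). Vwc2, a BMP antagonist of the brain, rose by 0.81 (adjusted p = 0.0267). The calls of Acvr2a, Rgma and Htra1 held in all 15 alternative settings. The call of Gdf10 was lost without the null day 1 array (-0.65, adjusted p = 0.0663) and without the wildtype day 14 array (-0.63, adjusted p = 0.0716). Neo1 lost its call without the null day 1 (-0.44), null day 14 (-0.58) or wildtype day 14 array (-0.62), with adjusted p = 0.154, 0.107 and 0.0624. For Smad4 the same 3 arrays ended the call (-0.33, -0.44 and -0.48, adjusted p = 0.315, 0.269 and 0.172). Vwc2 was not called without the wildtype day 1 (0.58, adjusted p = 0.101) or wildtype day 14 array (0.38, adjusted p = 0.309), and stood at 1.23 without the null day 14 array. It was also not called after a repeated quantile normalization (adjusted p = 0.0546) or with Xist in the model (adjusted p = 0.0666). Smad4 was also not called with an intensity trend (adjusted p = 0.0581). In the fit without both high-Xist arrays and with age as a number, the adjusted p of Vwc2 was 0.165 and that of Smad4 0.0749.

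**Figure D5:**
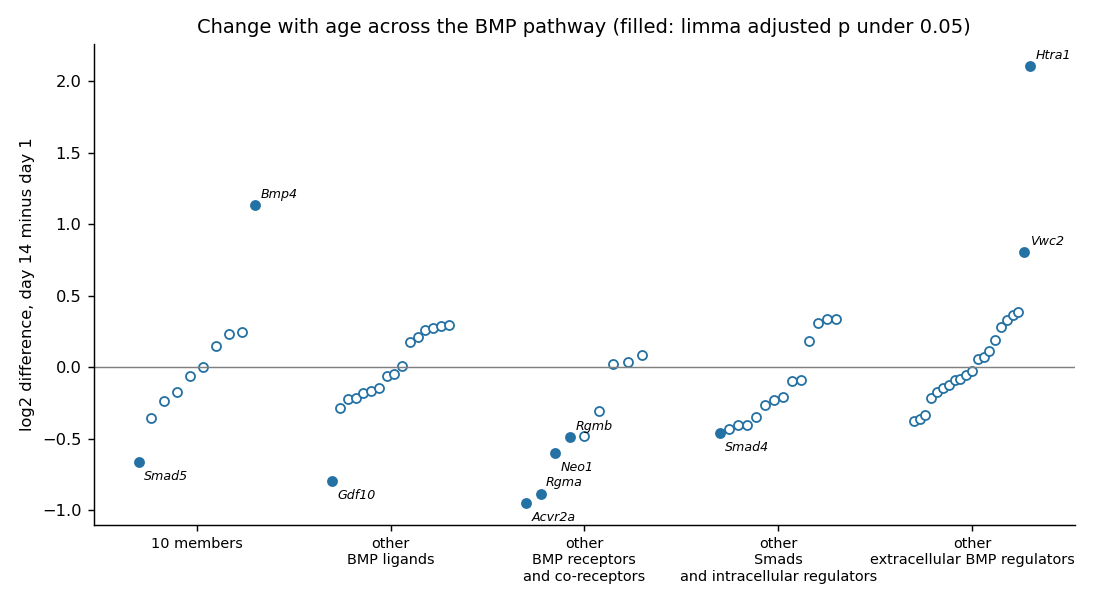
Log2 difference, day 14 minus day 1 (y axis), for the 10 members and for the other measured BMP pathway genes in 4 groups (x axis), ordered by value within a group. Filled points passed the limma test (adjusted p under 0.05), and the 9 receptors and co-receptors hold 4 of them, all below 0.

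Of 12 measured BMP-responsive genes other than the Id family, 0 were called between the genotypes, 7 being higher and 5 lower in the null without passing. Msx1, a homeobox target, was the farthest from 0 (-0.43, adjusted p = 0.227), and the bHLH repressor gene Hey1 stood at 0.16 (adjusted p = 1.00). At day 14 against day 1, Hey1 rose by 0.63 (adjusted p = 0.0131) and Dlx5, which is also a neuroblast marker, fell by 0.66 (adjusted p = 0.0116), with 10 others not called and a list median of 0.08. Hey1 was not called without the wildtype day 1 (0.55, adjusted p = 0.0502) or null day 14 array (0.56, adjusted p = 0.119), nor Dlx5 without the null day 1 (-0.52, adjusted p = 0.084) or null day 14 array (-0.66, adjusted p = 0.0587). The inhibitory Smads, Smad6 and Smad7, are classical feedback targets and are named after their values were seen, at -0.23 and 0.34 (adjusted p = 0.269 and 0.168).

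The bHLH factors that Id proteins bind or restrain held no gene called between the genotypes (15 measured, median -0.01), with Neurod1 at 0.34 (adjusted p = 0.945) and Olig1 at -0.29 (adjusted p = 0.935) farthest from 0. Leaving out arrays gave 0.0222 to 0.53 for Neurod1 and -0.48 to -0.0742 for Olig1. At day 14 against day 1, 5 of the 15 were called lower and 2 higher, with a list median of -0.30. Of all genes 6.29% were called lower and 7.5% higher. The neuronal differentiation genes Neurod6, Neurod1 and Neurod2 fell by 2.51, 1.14 and 0.98 (adjusted p = 0.000578, 0.00787 and 0.00272). Neurod1 was not called in the fit that both dropped the high-Xist arrays and took age as a number (-1.08, adjusted p = 0.0924), and its difference was -0.67 without the wildtype day 14 array. Olig1, of the oligodendrocyte lineage, rose by 1.04 (adjusted p = 0.00525), and Hey1, described above, was the other gene called higher. Neuroblast markers fell beside the first group, 7 of 10 being called lower and 1 higher, and the part of those cells was not tested.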

How the data were processed

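Per the submitters' processing notes, the authors made the deposited log2 levels by RMA, and the labels name no software version or genome build. A deposited list of linear intensity values, 52 probe sets long and holding 0 of the members, matched the log2 levels after exponentiation (largest deviation 3.4e-06) and served only to check the scale. Per the labels, Trizol was used for extraction, and cRNA was amplified before labelling.

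Of 35557 probe sets, 21789 had 1 gene symbol, 1621 several and 12147 none. For each gene the brightest single-gene probe set was kept, which gave 19938 genes. Tests were run with limma 3.58.1 in R 4.3.3 (lmFit and eBayes, genotype plus age as a factor, 2 residual and 7.51 prior degrees of freedom). Slopes came from a model with day as a number that interacts with genotype. Every p-value is 2-sided, with adjustment by Benjamini-Hochberg over all genes, with a threshold of 0.05. The residual SD is the moderated one. In the model of genotype plus age it also holds any genotype difference that changes with age. The number of arrays limits the precision.

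All members were named. Other lists gave up to 3 called genes per direction with the largest difference, or 2 where none was called. Members and lists were chosen with earlier results of these data known. The code was tested on simulated data. Promoters and gene names came from RefSeq tables, and figures from matplotlib 3.10.9.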

Additional observations from a re-analysis of the deposited data

How the results depend on the processing

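Between the genotypes, 0 members were called in all 19 alternative settings, and for the slopes 0 in all 14. In the genotype comparison, leaving out the null array, the wildtype array or both arrays of an age gives the same fit. The 19 settings therefore hold fewer separate checks than their number. In simulated data with 200 changed genes, the slope test called 0.5%, 15.5% and 100% of slope differences of 0.5, 1 and 2. Its count of 0 therefore says little about differences of 1 or less. At day 14 against day 1, 2 members were called, with 1 to 3 when single arrays were left out, and Bmp4 kept its call in all 15 settings. For day 7 against day 1 and for day 14 against day 7 the count was 0, with 0 to 1 without single arrays. Values near 0 changed sign. Between the genotypes, a repeated quantile normalization gave 0.0274 for Id1, centring each array on its median 0.0276 for Id1 and 0.0159 for Smad5, and the fit that dropped the high-Xist arrays and took age as a number -0.0598 for Id2, 0.0333 for Id4, -0.0489 for Bmpr1a and -0.0448 for Bmpr1b. For slopes, centring gave -0.00556 and log2 of day -0.0495 for Id2, and Xist as a covariate 0.0884 for Smad1.

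Leaving out single arrays, or both arrays of an age, gave genotype differences of -0.25 to 0.0135 for Bmp4, -0.0564 to 0.064 for Id1, -0.0233 to 0.16 for Id2, -0.20 to 0.32 for Id3, -0.26 to 0.11 for Id4, -0.24 to 0.00678 for Nog and -0.0673 to 0.0154 for Smad5. They were 0.0154 to 0.28 for Smad1, 0.0038 to 0.16 for Bmpr1a and 0.00214 to 0.14 for Bmpr1b. For day 14 minus day 1, leaving out single arrays gave -0.0784 to 0.0779 for Id1, -0.17 to 0.0443 for Id2, -0.35 to 0.65 for Id3, -0.51 to 0.16 for Id4, 0.048 to 0.41 for Nog, -0.55 to -0.17 for Smad1, -0.35 to -0.12 for Bmpr1a and 0.11 to 0.38 for Bmpr1b. For day 14 minus day 7 the ranges were -0.14 to 0.0697 for Id1, -0.38 to 0.62 for Id3, -0.56 to 0.11 for Id4, -0.19 to 0.19 for Nog and -0.28 to 0.15 for Smad1. For day 7 minus day 1 they were -0.0427 to 0.19 for Bmpr1a, -0.0700 to 0.13 for Id1, -0.24 to 0.30 for Id3 and -0.17 to 0.27 for Id4. Slope ranges were -0.82 to 0.41 for Bmpr1a, -0.29 to 0.97 for Bmpr1b, -0.21 to 0.32 for Id1, -0.78 to 0.77 for Id2, -0.92 to 0.36 for Nog, -0.95 to 0.43 for Smad1 and -0.32 to 0.0102 for Smad5. Which of the joint changes in the fit without the high-Xist arrays moved a value was not tested, nor was the cause of the other changes.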
